A study of Homo sapiens with 16 samples.

Results

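The 4 libraries labelled zdna3 were taken from a set of 16 RNA sequencing libraries of U2OS, a human osteosarcoma cell line, by their titles. They are 2 libraries of the CL arm and 2 of the CC arm, whose genotype labels read zdna3_CL and zdna3_CC. The labels spell out neither the number nor the arms, name no control and no treatment, and do not say whether replicates were separate cultures or whether each line was 1 clone, so a p-value may measure technical spread only. The other 12 libraries carry the numbers zdna1, zdna2 and zdna4 with the same 2 arms, 2 libraries each. Total RNA was extracted with Trizol in all of them. Per the file headers, reads were counted against the human hg19 genes plus 1 added reference sequence, which in the zdna3 libraries is 190 bases long and counted as 1 gene over positions 1 to 190. That sequence is called the contig here, and it was kept apart from the 28207 human genes.

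The series title names Z-DNA, MYC and FACT. Z-DNA is a left-handed form of the double helix that alternating purine and pyrimidine runs can take when DNA is underwound, as happens behind a moving RNA polymerase. MYC is a transcription factor that binds DNA with its partner MAX at the E-box, and FACT is a histone chaperone made of SUPT16H and SSRP1 that takes nucleosomes apart and rebuilds them around polymerases. Of the 4 genes called in zdna3, 1 encodes a messenger RNA, LRBA, which rose. The 3 that fell encode small structured RNAs, without a poly(A) tail, that work inside ribonucleoproteins: U12 and U5 in the spliceosomes, 7SL in the signal recognition particle, which brings ribosomes making secreted proteins to the endoplasmic reticulum.

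Human-gene reads numbered 79181 and 83269 in the CL libraries, against 55606 and 42494 in the CC libraries. A human gene had at least 1 read in 11240 and 11401 cases in CL, against 9843 and 8910 in CC. The line's matrix genes were present, with 91 and 92 reads of COL1A1 (a chain of type I collagen) in CL, against 37 and 37 in CC. COL1A2, the other chain of that collagen, had 0 and 0 reads in CL, against 1 and 1 in CC, and RUNX2, the osteoblast transcription factor, had 0 and 1 in CL, against 2 and 2 in CC, so these 2 defining markers were at or near 0. Markers of epithelium summed to 26.5 and 48.7 CPM (scaled read counts, defined below) in CL, against 0 and 47.6 CPM in CC, those of blood to 13.3 and 0 CPM in CL, against 35.7 and 0 CPM in CC, and those of neurons and liver to 0 and 48.7 CPM in CL, against 0 and 0 CPM in CC.

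The contig was far lower in CL than in CC. It took 20752 and 22922 reads in the CL libraries, against 394987 and 295431 in the CC libraries. As a share of all assigned reads these were 20.8% (95% Wilson interval 20.5 to 21%) and 21.6% (21.3 to 21.8%) in CL, against 87.7% (87.6 to 87.8%) and 87.4% (87.3 to 87.5%) in CC. Both CL libraries lay far below both CC libraries, and replicates differed by about 1 percentage point or less. Set against the human reads, the contig averaged 269 ± 9.33 reads per 1000 human-gene reads in CL and 7028 ± 107 in CC (SD, n = 2 each), a CL over CC ratio of 0.0382. With 2 libraries against 2, the exact permutation test gave its smallest possible two-sided p, 0.333. The human genes of the CC libraries were therefore read from the 12.3% and 12.6% of assigned reads that the contig left, against 79.2% and 78.4% in CL.

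The deposited values are reads multiplied by 1 constant per library, whose origin the sources used here do not give. On that scale the human genes as a whole were higher in CL. Their deposited values summed to 14798 and 14120 in CL, against 7971 and 7872 in CC, a mean of 14459 ± 479 in CL and 7921 ± 69.6 in CC and a ratio of 1.83 (exact permutation p = 0.333, the smallest possible). The same CL over CC ratio was 1.15 in zdna1, 1.03 in zdna2 and 1.21 in zdna4. The contig's deposited value was 3878 and 3887 in CL, against 56617 and 54729 in CC, a ratio of 0.0697. The direction of a human gene therefore depends on which total it is set against, and both scales are given: CPM, human-gene reads scaled to a common library size with TMM factors, which sets the typical gene level between libraries, and the deposited scale. In RNA from a whole culture, fewer cells, less RNA per cell and the unexplained constant of each library cannot be told apart.

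**Figure D1:**
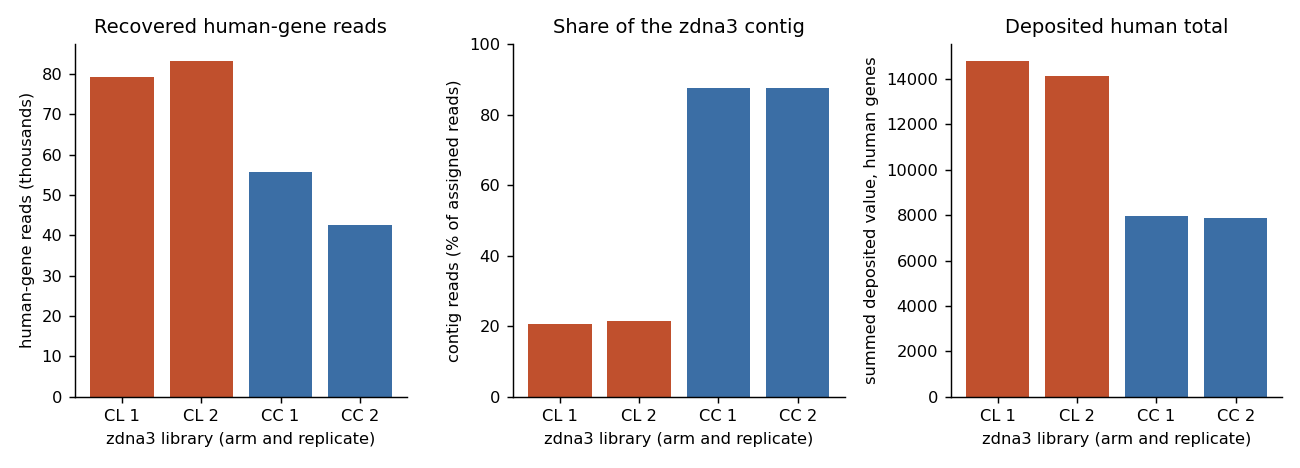
Recovered human-gene reads (left, in units of 1000 reads), the contig's share of all assigned reads (middle, percent) and the summed deposited value of the human genes (right) in each zdna3 library, CL and then CC; each bar is 1 library. CL libraries have a contig share near 21% against above 87% in CC, and deposited human totals of 14798 and 14120 in CL against 7971 and 7872 in CC.

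Relative to the other human RNAs, few genes were called as different between the arms of zdna3. The fall of 3 small RNAs, RNU12, RNU5E-1 and RN7SL1, and the rise of 1 messenger RNA, LRBA, passed limma's test on CPM, though RN7SL1 turned to a rise on the deposited scale. The test covered 4632 human genes, those averaging 50 CPM or more over the 16 libraries. The 4 calls are 0.0864% of the genes tested, with 0.0216% higher and 0.0648% lower in CL. The test was run on log2 of CPM plus 10 with Benjamini-Hochberg adjustment at 0.05. Before adjustment, p was under 0.05 for 304 genes (6.56%), 223 higher (4.81%) and 81 lower (1.75%), and the edgeR and DESeq2 tests on recovered reads called 4 genes each, 3 of them shared with limma. The median log2 change of all genes tested was 0.06, and 1573 genes (34.0%) had both CL libraries on one side of both CC libraries, 904 higher (19.5%) and 669 lower (14.4%).

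The depth sets how large a change could be seen. The median standard error of a zdna3 change was 0.70 on the log2 scale for the 2335 genes under 100 CPM and 0.24 for the 220 genes over 500 CPM. The smallest change called was 0.52, and a gene that was not called may still differ.

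**Figure D2:**
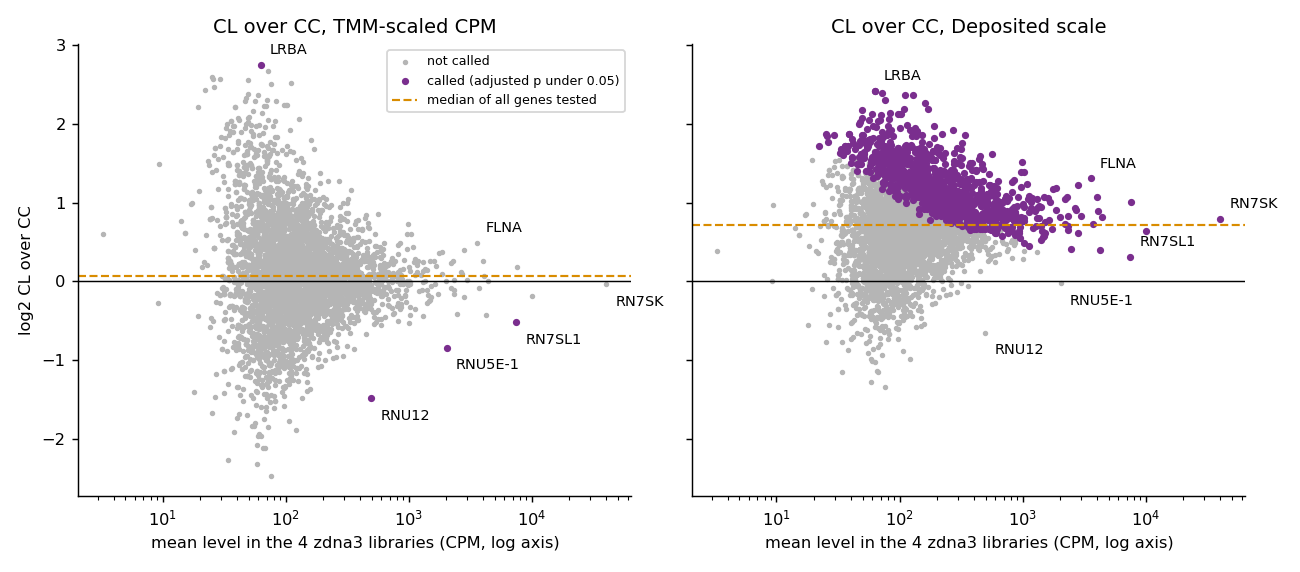
Log2 CL over CC of each tested gene against its mean CPM in the 4 zdna3 libraries (log axis), on TMM-scaled CPM (left) and on the deposited scale (right); purple points passed limma's test and the dashed line is the median of all genes tested. On the left 4 points are called and the median is 0.06, and on the right 1049 are called, all higher in CL, and the median is 0.72.

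RNU12 encodes the U12 RNA, which pairs with the branch site of the rare introns removed by the minor spliceosome. It is a single exon at chr22:43011251-43011399 on the plus strand of hg19, 149 bases in the files. Its sequence, from the GENCODE v29 transcripts (150 bases), is shown because U12 had the largest fall of the genes called. The first capitals mark the bases that pair with the branch site and the last the Sm site, where the Sm protein ring sits.
RNU12: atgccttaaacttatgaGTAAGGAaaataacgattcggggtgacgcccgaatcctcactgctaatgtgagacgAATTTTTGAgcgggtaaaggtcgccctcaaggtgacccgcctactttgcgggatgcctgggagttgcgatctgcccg
RNU12 had 25 and 16 reads in CL, against 39 and 32 reads in CC, which were 331 and 195 CPM in CL and 695 and 762 CPM in CC. Both CL libraries lay below both CC libraries even though the CL libraries held more human reads. The mean was 263 ± 96.7 CPM in CL and 729 ± 47.0 CPM in CC (SD, n = 2 each), a log2 change of -1.48 (SE 0.285; adjusted p = 0.0124 by limma, 0.000351 by edgeR). As a ratio of pooled reads over TMM-scaled library sizes CL stood at 0.359 of CC (95% interval 0.238 to 0.535, counting error only). RNU12 had deposited values of 4.67 and 2.71 in CL, against 5.59 and 5.93 in CC, and on that scale a log2 change of -0.65 that did not pass (adjusted p = 0.0519 by limma). Without CL replicate 2 the change was -1.11 (adjusted p = 0.247 by limma), and without CC replicate 2 it was -1.45 (adjusted p = 0.119 by limma).

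U5 RNA holds the exon ends together in both spliceosomes through an invariant loop, and human cells carry several near-identical copies of its gene. Of these, 3 could be tested. Per the file headers only uniquely aligned reads were counted, so reads that fit more than 1 copy are lost and the split between copies is uncertain.

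RNU5E-1 (chr1:11968211-11968329, plus strand, a single exon) had 100 and 131 reads in CL, against 138 and 117 reads in CC, or 1326 and 1594 CPM in CL and 2461 and 2786 CPM in CC. The groups did not overlap in CPM. Its log2 change was -0.84 (SE 0.171; adjusted p = 0.0160 by limma, 0.000148 by edgeR). Its deposited values were 18.7 and 22.2 in CL, against 19.8 and 21.7 in CC, a log2 change of -0.02 (adjusted p = 0.923 by limma). On it the arms overlapped, so the fall is relative to the other human RNAs. Without CC replicate 2 the change of RNU5E-1 was -0.79 (adjusted p = 0.206 by limma), without CL replicate 1 it was -0.71 (0.339) and without CL replicate 2 it was -0.98 (0.0593).

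The other U5 copies lay on the same side. RNU5A-1 had 14 and 14 reads in CL, against 13 and 19 in CC, a log2 change of -0.83 (unadjusted p = 0.0385 and adjusted p = 0.709 by limma). RNU5B-1 had 32 and 44 reads in CL, against 47 and 25 in CC, a log2 change of -0.56 (unadjusted p = 0.0322 and adjusted p = 0.660 by limma). Neither passed the test, and in both the CL libraries lay below the CC libraries in CPM.

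Of 24 spliceosomal RNAs made by RNA polymerase II that were listed, 7 could be tested. Of these 2 fell and none rose, against 0.0648% lower and 0.0216% higher among all genes tested. The log2 change was below 0 in 6, against 2083 of all 4632 genes tested. Their median was -0.56, against 0.06 for all genes tested. In 5 of the 7 both CL libraries lay below both CC libraries, against 14.4% of all genes tested. The 5 include the called RNU12 and RNU5E-1, and the list was chosen with earlier results of these data known. RNU4-2, a U4 RNA that chaperones U6 into the spliceosome, averaged 2131 ± 587 CPM in CL and 2778 ± 45.0 CPM in CC (log2 change -0.41, adjusted p = 0.540 by limma). RNU4-1, its near-identical copy, stood at -0.16, and RNU4ATAC, the U4 RNA of the minor spliceosome, had 6 and 1 reads in CL, against 2 and 1 in CC, too few to tell a change. On the deposited scale the median of the 7 was 0.25, below the 0.72 of all genes tested. There 2 of the 7 passed the test as higher, RNU4-1 (0.65) and RNU4-2 (0.41), against 22.6% of all genes tested.

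Counted together, the 37 genes of spliceosomal RNAs took 0.702% and 0.621% of human-gene reads in CL, against 0.941% and 1.01% in CC. The mean share was 0.662 ± 0.0575% in CL and 0.977 ± 0.0521% in CC (SD, n = 2 each), a ratio of 0.677, and the exact permutation p was 0.333, the smallest possible. The mean share in the other numbers was 1.30% in CL and 1.13% in CC for zdna1, 0.854% in CL and 0.848% in CC for zdna2, and 0.870% in CL and 0.641% in CC for zdna4. In zdna3 CL had the lower mean share of the arms, and in each other number CL had the higher. Whether this share differs between numbers was not tested, and tests for single genes follow below.

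Proteins that work with these RNAs showed no call. Among 7 tested proteins of the minor spliceosome none passed limma's test, and their median log2 change was 0.13. Of the SF3B proteins, which bind the branch site with U12 or U2, SF3B2 averaged 631 ± 83.2 CPM in CL and 598 ± 239 CPM in CC, and SF3B1 stood at a log2 change of 0.18. Of 15 proteins of U5 and the tri-snRNP none passed, with a median of 0.02, and PRPF8, the core protein that U5 is built on, averaged 885 ± 108 CPM in CL and 874 ± 226 CPM in CC (log2 change 0.04). Of 12 Sm and snRNP assembly proteins none passed, with a median of -0.21. Of 14 genes for the transcription and end processing of these RNAs none passed, with a median of 0.23, and SNAPC1, a subunit of the complex that starts their transcription, had the only unadjusted p under 0.05 among those named (353 ± 138 CPM in CL and 547 ± 33.1 CPM in CC, log2 change -0.67, adjusted p = 0.739 by limma).

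7SL RNA is the scaffold of the signal recognition particle, and it is made by RNA polymerase III from 2 main genes that lie on chromosome 14. The copies are near-identical, so the split of reads between them is uncertain. RN7SL1 (chr14:50053298-50053596, plus strand) had 474 and 493 reads in CL, against 443 and 410 reads in CC, or 6285 and 5998 CPM in CL and 7900 and 9763 CPM in CC. Both CL libraries lay below both CC libraries in CPM, and the CC libraries differed more from each other than the CL libraries did. It fell by 0.52 on the log2 scale of CPM (SE 0.107; adjusted p = 0.0160 by limma, 0.000148 by edgeR), and turned to a rise of 0.31 on the deposited scale (adjusted p = 0.0432 by limma), where its values were 88.6 and 83.6 in CL, against 63.5 and 76.0 in CC. Without CC replicate 2 it stood at -0.40 (adjusted p = 0.378 by limma), without CL replicate 1 at -0.55 (0.158), and without CL replicate 2 at -0.48 (0.181). The span of RN7SL1 overlaps that of RPS29, which had 33 reads in CL and 23 in CC.

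RN7SL2 averaged 9327 ± 630 CPM in CL and 10595 ± 710 CPM in CC, without overlap between the arms (log2 change -0.18, adjusted p = 0.786 by limma). The 4 genes of 7SL RNA together took 1.62% and 1.54% of human-gene reads in CL, against 1.92% and 2.16% in CC, a ratio of the means of 0.776. The proteins of the particle and its receptor gave no call among 10 tested, with a median log2 change of 0.03. SRP14, which binds the 7SL end, averaged 186 ± 74.1 CPM in CL and 280 ± 58.6 CPM in CC (log2 change -0.60, adjusted p = 0.915 by limma), and SRP72 averaged 343 ± 2.88 CPM in CL and 419 ± 13.1 CPM in CC (log2 change -0.28, adjusted p = 0.981 by limma).

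Of 24 listed RNAs of RNA polymerase III and the signal recognition particle, 9 could be tested. Of these 1 fell, RN7SL1, and none rose, against 0.0648% lower and 0.0216% higher among all genes tested. The log2 change was below 0 in 8, against 2083 of all 4632 genes tested, with a median of -0.43. In 6 of the 9, RN7SL1 among them, both CL libraries lay below both CC libraries, against 14.4% of all genes tested. This list too was chosen with earlier results known. RPPH1, the RNA of RNase P, which trims the front of transfer RNAs, had 269 and 304 reads in CL, against 266 and 211 in CC, and averaged 3633 ± 93.3 CPM in CL and 4884 ± 199 CPM in CC. Its log2 change of -0.43 (SE 0.111) missed the threshold by limma (adjusted p = 0.178) and passed it by DESeq2 (adjusted p = 0.0487), and on the deposited scale it turned to 0.40. RMRP, the RNA of the related RNase MRP, averaged 4221 ± 274 CPM in CL and 4012 ± 50.4 CPM in CC (log2 change 0.07, adjusted p = 0.999 by limma).

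RN7SK, the RNA that keeps the elongation kinase P-TEFb in check, took more human-gene reads than any other gene. It had 3168 and 3096 reads in CL, against 2278 and 1713 in CC, and the arms overlapped in CPM (39835 ± 3067 CPM in CL and 40707 ± 119 CPM in CC, log2 change -0.03, adjusted p = 0.999 by limma). The 95% interval of its change was -0.15 to 0.09. RNY1, a Y RNA, stood at -0.45 and RNA5S9, a copy of the 5S ribosomal RNA, at -0.82, neither called. In deposited values the median of the 9 was 0.40, below the 0.72 of all genes tested. There 6 of the 9 passed as higher, against 22.6% of all genes tested. The RNA polymerase III machinery itself gave no call among 15 tested genes, with a median of 0.29. Its repressor MAF1 averaged 254 ± 2.53 CPM in CL and 137 ± 58.7 CPM in CC (log2 change 0.91, adjusted p = 0.786 by limma), and BDP1, a subunit of the initiation factor TFIIIB, 108 ± 2.42 CPM in CL and 202 ± 16.6 CPM in CC (log2 change -0.85, adjusted p = 0.709 by limma).

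Summed together, short genes took a smaller share of the reads in CL. The sum includes RNAs described above, such as RN7SK, RN7SL1, RN7SL2, RPPH1 and the spliceosomal RNAs, so it is not separate from them. Genes with under 400 exonic bases, 2803 in number, took 7.95% and 7.53% of human-gene reads in CL, against 8.84% and 9.13% in CC, a mean of 7.74 ± 0.298% in CL and 8.98 ± 0.200% in CC (exact permutation p = 0.333, the smallest possible). In the other numbers this share was higher in CL than in CC, at 9.07% in CL and 7.86% in CC for zdna1, 7.22% in CL and 6.60% in CC for zdna2, and 7.72% in CL and 6.01% in CC for zdna4. Small nucleolar and Cajal body RNAs, which guide modification of ribosomal and spliceosomal RNA, took 0.544% and 0.602% in CL, against 0.685% and 0.704% in CC. None of 9 tested members of that kind passed limma's test, and their median was -0.49. The most abundant lay near 0: SNORD3A, the U3 RNA of ribosome assembly, at -0.11, SNORA73A at -0.04 and SNORA73B at 0.07. SNORA23, which sits at the median, had only 3 and 3 reads in CL, against 7 and 1 in CC. In 2 of the 9 both CL libraries lay below both CC libraries, against 14.4% of all genes tested.

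LRBA was the 1 gene called as higher, and it rests on few reads. It encodes a BEACH-domain protein that keeps the immune receptor CTLA4 from being degraded in lysosomes. LRBA (chr4:151185588-151936879, minus strand) had 9 and 9 reads in CL, against 0 and 1 reads in CC, or 119 and 109 CPM in CL and 0 and 23.8 CPM in CC. Its log2 change was 2.76 (SE 0.621, adjusted p = 0.0473 by limma). The ratio of pooled reads over TMM-scaled library sizes was 11.2 (95% interval 1.77 to 467, counting error only). The edgeR test did not call it (adjusted p = 0.333), and without CC replicate 1 its change was 1.88 (adjusted p = 0.302 by limma), without CL replicate 1 2.70 (0.339) and without CL replicate 2 2.81 (0.181). The DESeq2 test did not call LRBA either (adjusted p = 0.9999). LRBA was at 2.42 on the deposited scale (adjusted p = 0.000212 by limma). Of 12 tested genes of vesicle traffic, 1 rose, LRBA, and none fell, against 0.0216% higher and 0.0648% lower among all genes tested. The list was chosen with earlier results of these data known, so it is not separate support for LRBA. Its median was 0.31 and 10 members were above 0, against 2549 of all 4632 genes tested. WDFY3, another BEACH protein, which acts in autophagy, averaged 198 ± 38.9 CPM in CL and 155 ± 118 CPM in CC (log2 change 0.54, adjusted p = 0.956 by limma).

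FLNA, the actin crosslinker filamin A, was not called by limma as reported here or by DESeq2. It was called by edgeR, and by limma with a mean of at least 200 CPM required or without array weights. It had 331 and 328 reads in CL, against 165 and 126 in CC, and averaged 4190 ± 282 CPM in CL and 2971 ± 41.0 CPM in CC, without overlap. Its log2 change was 0.49 (SE 0.116, adjusted p = 0.0616 by limma, 0.0213 by edgeR, 0.143 by DESeq2). FLNC, the muscle type of filamin, averaged 3188 ± 104 CPM in CL and 2406 ± 103 CPM in CC (log2 change 0.40, adjusted p = 0.503 by limma). PLEC, the linker plectin, stood at 0.25 and ACTB, cytoplasmic actin, at 0.19. Of 25 tested genes of the actin cytoskeleton none passed limma's test and 11 had both CL libraries above both CC libraries, against 19.5% of all genes tested. Their median was 0.11.

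The same contrast in the other numbers shows where zdna3 differed. The CL over CC change of zdna3 minus the mean change of zdna1, zdna2 and zdna4 passed limma's test for 6 of 4632 genes (0.13%), 1 higher (0.0216%) and 5 lower (0.108%). The edgeR test called 6 as well, 4 of them shared. On the deposited scale 208 genes (4.49%) passed, 206 higher (4.45%) and 2 lower (0.0432%). RN7SL1 differed by -1.0 (SE 0.117, adjusted p = 3.29e-08 by limma), with a change of -0.52 in zdna3 against 1.13 in zdna1, 0.50 in zdna2 and -0.17 in zdna4. RPPH1 differed by -0.87 (SE 0.122, adjusted p = 4.08e-06 by limma), since it was lower in zdna3 CL by 0.43 and higher in CL by 0.53, 0.41 and 0.39 in zdna1, zdna2 and zdna4.

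RNU5E-1 differed by -1.26 (SE 0.187, adjusted p = 1.36e-05 by limma), with a change of 0.12 in zdna1, 0.00 in zdna2 and 1.12 in zdna4. RNU12 differed by -1.48 (SE 0.311, adjusted p = 0.0120 by limma), and its change was within 0.03 of 0 in each other number. LRBA differed by 3.28 (SE 0.679, adjusted p = 0.0120 by limma; 0.0621 by edgeR) and stood at -0.12, -1.13 and -0.31 in zdna1, zdna2 and zdna4. The last is CIC, a transcriptional repressor below receptor tyrosine kinase signalling. CIC had 2 and 6 reads in CL, against 11 and 8 in CC, and averaged 49.8 ± 32.9 CPM in CL and 193 ± 4.00 CPM in CC, a change of -1.88 that did not pass in zdna3 alone (adjusted p = 0.183 by limma). Its difference from the other numbers was -2.45 (SE 0.552; adjusted p = 0.0327 by limma, 0.0579 by edgeR).

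**Figure D3:**
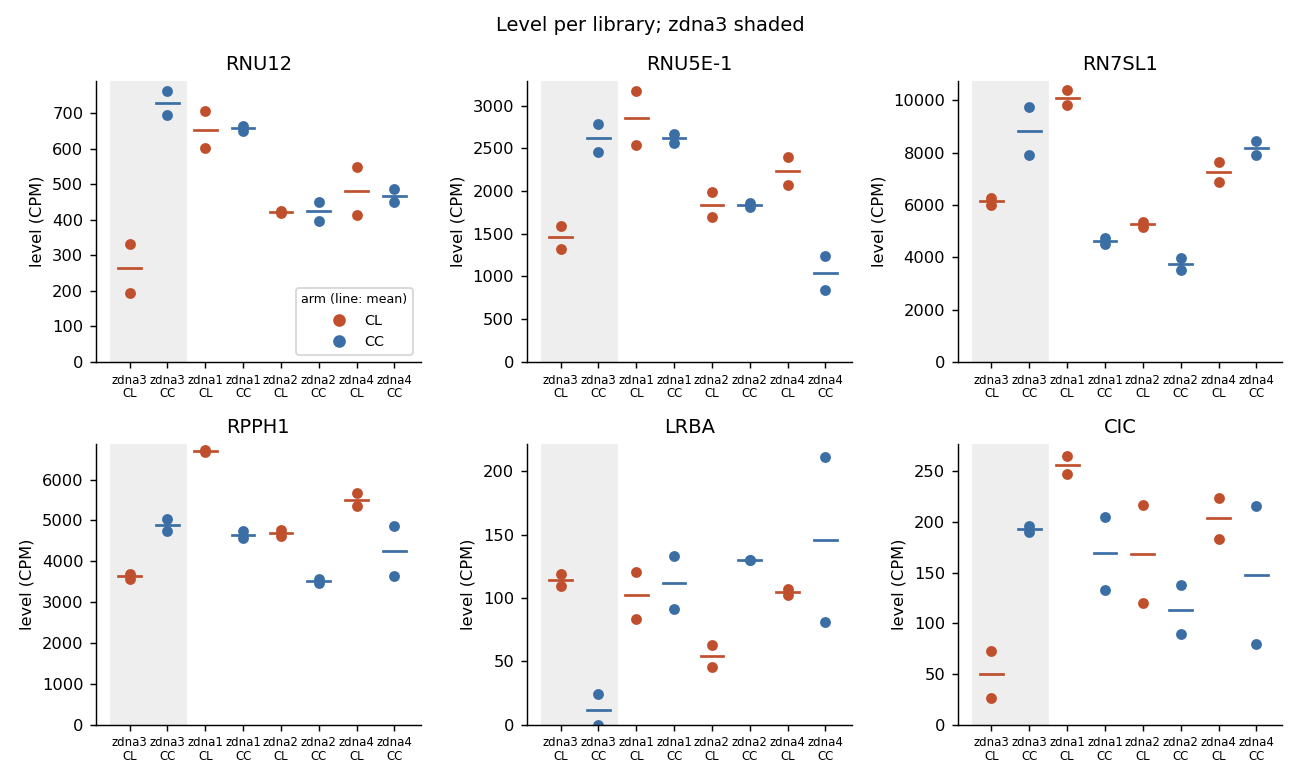
Level in CPM of the 6 genes called in the difference between numbers, in each of the 16 libraries, CL (red) left of CC (blue) within each number, with zdna3 shaded; points are libraries and lines their means. In RNU12 the zdna3 CL libraries, at 331 and 195 CPM, are the lowest of all 16, and LRBA is at 0 and 23.8 CPM in zdna3 CC.

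**Figure D4:**
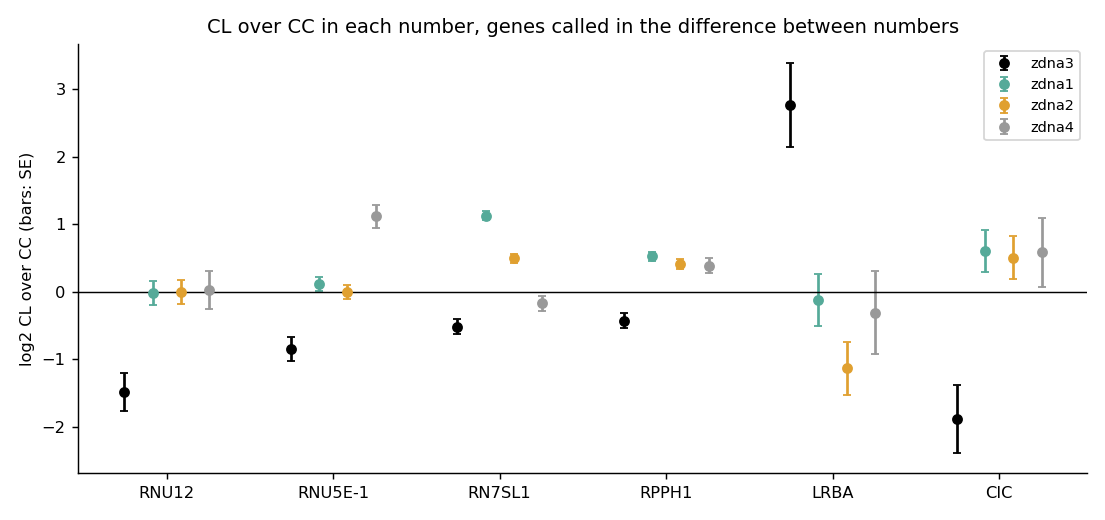
Log2 CL over CC of the same 6 genes in zdna3 and in each other number, on TMM-scaled CPM; bars are the standard errors of limma. RNU12 is at -1.48 in zdna3 and near 0 elsewhere, and RPPH1 is at -0.43 in zdna3 and between 0.39 and 0.53 elsewhere.

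Of the next genes by p in this difference, none passed limma's test. FLNC differed by 0.66 (adjusted p = 0.0760 by limma, 0.00354 by edgeR, 0.0472 by DESeq2). RN7SL2 differed by -0.42 (adjusted p = 0.104 by limma, 0.0144 by edgeR, 0.0140 by DESeq2). Both were thus called by edgeR and DESeq2 and not by limma. IGF1R, the receptor of insulin-like growth factor 1, had 44 and 31 reads in CL, against 11 and 9 in CC (480 ± 146 CPM in CL and 205 ± 12.8 CPM in CC). Its change in zdna3 was 1.16 (adjusted p = 0.185 by limma) and its difference from the other numbers 1.38 (adjusted p = 0.0954 by limma). GRB10, an adaptor that binds that receptor, had 14 and 9 reads in CL, against 0 and 4 in CC, with a change of 2.24 (adjusted p = 0.184 by limma). NDRG1, a stress-responsive gene, had 24 and 23 reads in CL, against 14 and 6 in CC, with a change of 0.63 (adjusted p = 0.750 by limma).

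On the deposited scale 1049 of 4632 genes (22.6%) were higher in CL and 0 lower by limma, and before adjustment p was under 0.05 for 1741 higher and 4 lower genes. The median log2 change was 0.72 there. Only changes away from it, in either direction, stand apart from the shift of the whole table. That median was 0.65 for genes under 100 CPM and 0.83 for genes over 500 CPM. FLNA had deposited values of 61.9 and 55.6 in CL, against 23.7 and 23.3 in CC (log2 change 1.31, adjusted p = 3.42e-13 by limma). RN7SK had 592 and 525 in CL, against 327 and 317 in CC (0.79, adjusted p = 2.73e-12), close to the median. ACTB stood at 1.01, FLNC at 1.22 and PLEC at 1.07, each past the threshold. The medians of the 23 chromosomes ran only between 0.55 and 0.83 on the deposited scale, and between -0.08 on chromosome 21 and 0.19 on chromosome 20 on CPM.

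Neither MYC nor FACT passed the test relative to the other human RNAs. MYC had 73 and 87 reads in CL, against 51 and 47 in CC, and averaged 1013 ± 64.0 CPM in CL and 1014 ± 148 CPM in CC. Its log2 change was 0.00 with a 95% interval of -0.59 to 0.60, so changes within those bounds cannot be told from none. MAX, its partner, had 6 and 6 reads in CL, against 6 and 2 in CC. SUPT16H had 36 and 25 reads in CL, against 21 and 15 in CC (log2 change 0.06, interval -0.57 to 0.69), and SSRP1 had 41 and 53 in CL, against 34 and 29 in CC (-0.13, interval -0.68 to 0.43). In deposited values MYC stood at 0.81, SUPT16H at 0.83 and SSRP1 at 0.67, each called as higher, near the median of 0.72.

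Of 11 topoisomerases and proteins that bind Z-form nucleic acids none passed limma's test on CPM, with a median of -0.14. TOP1, the topoisomerase that relieves torsion ahead of and behind polymerases, averaged 215 ± 22.8 CPM in CL and 175 ± 79.7 CPM in CC (log2 change 0.35). TOP2A stood at -0.38 and TOP2B at -0.37. ADAR, whose long form carries a Z-DNA binding domain, had 35 and 30 reads in CL, against 27 and 18 in CC (-0.14). ZBP1, the other human protein with such domains, had 0 reads in each of the 4 libraries. Of 12 tested genes of the MYC network none passed, with a median of 0.13, and of 33 ribosome biogenesis genes that MYC is known to activate none passed, with a median of 0.11 and NCL, nucleolin, at 0.00. Of 15 histone chaperones, FACT included, none passed, with a median of 0.02.

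The replication-dependent histones, whose messages lack poly(A) tails as the small RNAs do, lay above 0 for the most part. Their 58 genes took 1.16% and 1.14% of human-gene reads in CL, against 0.894% and 1.02% in CC, a mean of 1.15 ± 0.0132% in CL and 0.955 ± 0.0869% in CC (ratio 1.21, exact permutation p = 0.333, the smallest possible). Of 29 tested none passed limma's test, 22 were above 0, against 2549 of all 4632 genes tested, and the median was 0.34. In 13 both CL libraries lay above both CC libraries, against 19.5% of all genes tested. H1-4, a linker histone, averaged 1640 ± 118 CPM in CL and 1365 ± 11.2 CPM in CC (log2 change 0.26), and H2BC12 948 ± 122 CPM in CL and 684 ± 110 CPM in CC (0.47, adjusted p = 0.739 by limma). The deposited scale called 19 of the 29 as higher, against 22.6% of all genes tested. Copies of these genes are near-identical, so single members are uncertain.

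The 78 ribosomal protein genes took 3.94% and 3.90% of human-gene reads in CL, against 4.27% and 4.30% in CC, without overlap. Of 74 tested none passed, 30 were above 0 and 44 below, and the median was -0.05. RPL4 averaged 2118 ± 174 CPM in CL and 1633 ± 115 CPM in CC (log2 change 0.37), and RPL19 1105 ± 238 CPM in CL and 1490 ± 14.2 CPM in CC (-0.44), so members lay on both sides.

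Other groups are given by their counts, and none of their tested members passed limma's test. In all, 29 lists had tested members but no call by limma. In them edgeR called FLNA of the actin list and no other gene, and between 0 and 6 members a list had an unadjusted p under 0.05. Extracellular matrix and osteoblast genes had a median of 0.22, with 17 of 21 above 0, against 2549 of all 4632 genes tested. Of the 21, 9 had both CL libraries above both CC libraries, against 19.5% of all genes tested. FN1, fibronectin, averaged 1995 ± 121 CPM in CL and 1547 ± 69.0 CPM in CC (log2 change 0.36, adjusted p = 0.632 by limma), and COL1A1 1163 ± 61.7 CPM in CL and 770 ± 156 CPM in CC (0.60, adjusted p = 0.485). Cholesterol and fatty acid synthesis genes had a median of 0.26 with 12 of 15 above 0, and ACLY, which makes acetyl-CoA for both pathways, averaged 419 ± 7.52 CPM in CL and 283 ± 29.1 CPM in CC (0.56, adjusted p = 0.799 by limma). MKI67, a marker of cycling cells, averaged 1249 ± 40.8 CPM in CL and 821 ± 51.4 CPM in CC (0.60, adjusted p = 0.416 by limma), while the 38 mitotic genes had a median of 0.05 and the 28 genes of S phase one of 0.16. RRM2, a subunit of the enzyme that makes deoxyribonucleotides, averaged 573 ± 52.7 CPM in CL and 357 ± 101 CPM in CC (0.69, adjusted p = 0.571 by limma).

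Stress and early response groups lay near the median of all genes. The median was 0.06 over 19 immediate early genes, -0.03 over 16 p53 targets, -0.04 over 15 heat shock chaperones, -0.04 over 15 genes of the unfolded protein and ATF4 response, and 0.10 over 20 hypoxia and glycolysis genes. JUN, a subunit of AP-1, had 68 and 64 reads in CL, against 38 and 30 in CC (log2 change 0.26), and CDKN1A, the p53 target that halts the cell cycle, had 9 and 17 in CL, against 13 and 6 in CC (-0.20). Only 4 of 32 interferon genes could be tested, with a median of -0.01. The median was 0.01 over 28 SR proteins and hnRNPs, 0.04 over 26 translation factors, 0.03 over 26 respiratory chain subunits and 0.11 over 10 nuclear long noncoding RNAs.

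**Figure D5:**
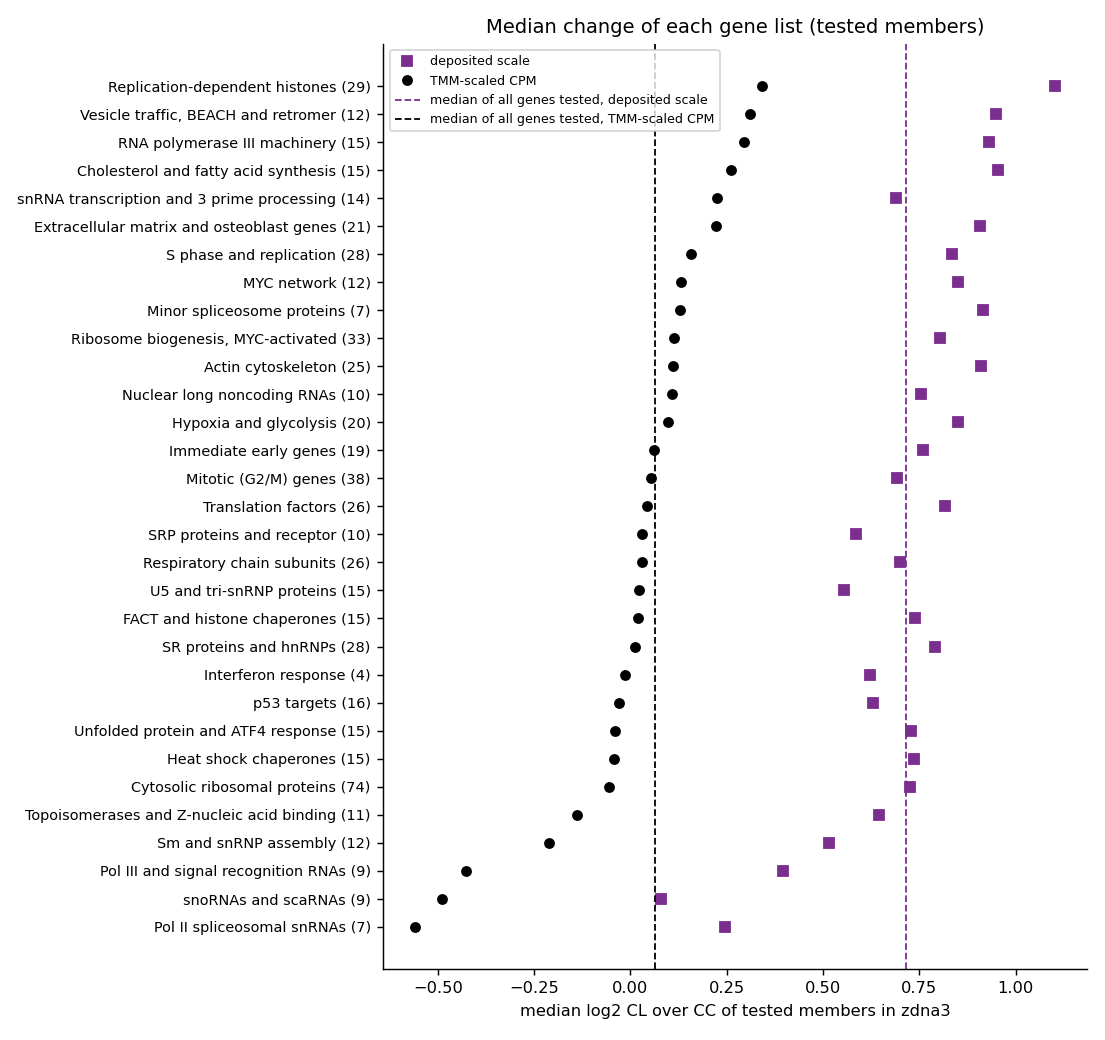
Median log2 CL over CC in zdna3 of the tested members of each gene list (number tested in brackets), on TMM-scaled CPM (circles) and on the deposited scale (squares); dashed lines are the medians of all genes tested, 0.06 and 0.72. The spliceosomal RNAs, at -0.56, and the snoRNAs, at -0.49, lie lowest on CPM, and the histones, at 0.34, highest.

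Promoter windows from RefSeq (GRCh38.p14), 250 bases before to 50 after a start, were searched on both strands for the E-box CACGTG, its variant CACGTT, for CGCGCG and GTGTGTGT, runs that can take the Z form, and for TATAAA. Of all 35116 windows, 7.26% held CACGTG, 5.34% CACGTT, 16.4% CGCGCG, 2.84% GTGTGTGT and 11.5% TATAAA. Of the 3 windows of LRBA, 1 held CGCGCG and 1 GTGTGTGT. Of the 3 windows of CIC, 1 held CACGTG and 1 CGCGCG. The window of FLNA held CGCGCG. The remaining searches of these windows found no match, which says only that the letters are not there. RNU12, RNU5E-1, RN7SL1 and RPPH1 had no window, so their promoters were not searched.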

How the data were processed

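Per the labels, an Abclonal kit was used for the libraries. Per the submitters' processing notes, Trim Galore 0.6.6, STAR and bedtools 2.29.2 were used, with hg19 and dm6 named as builds. Per the file headers, uniquely aligned reads over exons were counted as pairs by featureCounts 2.0.1 without a strand setting, so reads of overlapping antisense genes cannot be told apart. The deposited signal values are multiples of 1 constant per library. The headers hold a folder named with the word spikein, but do not explain the constant. Whole reads were recovered by dividing by the smallest step, within 0.1 read. In every library 100% of the nonzero human values came out whole.

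The test was limma 3.58.1 on log2(CPM + 10) with TMM factors from edgeR 4.0.16, in 1 fit of all 16 libraries with 8 group means and array weights per group, two-sided. A fold change on this scale understates the change of low genes. This is the test for scaled values, and edgeR's quasi-likelihood test and DESeq2 1.42.0 on recovered reads were alternatives. On the deposited scale the values were multiplied by 1 constant common to all libraries, with no further scaling. The fit was tested on simulated data. There limma recovered 12.2% of 98 genes given a 2-fold change in zdna3 CL and 55.2% of 96 given a 4-fold change. Of those averaging at least 500 CPM, limma recovered 75% of 8 at 2-fold and 100% of 5 at 4-fold. The edgeR test recovered 16.3% of the 98 and 64.6% of the 96. Among 4636 genes tested limma made 7 false calls and edgeR 3. Reads carry no molecular identifiers and are not independent molecules, so intervals hold counting error alone.

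Read counts of replicates over human genes did not differ beyond sampling noise (chi-square p = 0.0739 in CL, 0.679 in CC), but the contig's share did (p = 5.33e-06 in CL, 0.00181 in CC), so they were kept as 2 libraries each.

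The members and gene lists were chosen with earlier results of these data known. Genes are named by a rule: those called in zdna3 by limma or edgeR, the 10 with the smallest p in the difference between numbers, the 10 with the highest mean CPM, 9 always (MYC, MAX, both FACT subunits, ADAR, ZBP1 and the topoisomerases TOP1, TOP2A and TOP2B), up to 4 members of a list described, and the 5 called genes with the smallest p on the deposited scale. The remaining U5, RNA polymerase III and spliceosomal RNAs of 3 lists were added after their values were seen. A few genes and sequences are not reported here. The printed sequence is from GENCODE v29 and promoters from RefSeq.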

Additional observations from a re-analysis of the deposited data

Results flagged for a closer look

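The CL over CC change of 6 genes in zdna3 differed from the mean change of zdna1, zdna2 and zdna4 by limma's test of that difference. They are RNU12 (-1.48), RNU5E-1 (-1.26), RN7SL1 (-1.0), RPPH1 (-0.87), CIC (-2.45) and LRBA (3.28), as differences of log2 changes in CPM plus 10. The edgeR test of the same difference did not call LRBA (adjusted p = 0.0621) or CIC (adjusted p = 0.0579).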

How the results depend on the processing

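The count of 4 genes called in zdna3 became 1049 on the deposited scale, 0 with no filter on low values and 8 without array weights, and ran between 0 and 33 when 1 zdna3 library was left out. It was 33 without CC replicate 1, 3 without CC replicate 2, 1 without CL replicate 1 (RNU12) and 0 without CL replicate 2. Of the 30 genes added without CC replicate 1, 25 had 0 reads in CC replicate 2. Apart from the replicate block, the other settings gave 3 to 5 calls, among them both CC libraries summed into 1, tried after seeing the data. The 6 calls in the difference between numbers became 208 on the deposited scale, 11 with a pseudocount of 50 CPM, 3 with no filter and 12 without array weights, and ran between 4 and 18 when 1 library was left out (18 without CC replicate 1). The 1049 calls on the deposited scale ran between 370 and 639 with 1 library left out, 639 without CC replicate 1, 370 without CC replicate 2, 421 without CL replicate 1 and 606 without CL replicate 2, settings also added after seeing the data. The contig's CL over CC ratio of 0.0382 was 0.0697 in deposited values and ran between 0.0373 and 0.0392 with 1 library left out. The genes called in zdna3 also changed among settings that gave 3 to 5 calls. With a pseudocount of 2 CPM, RNU5E-1 and RN7SL1 missed the threshold (adjusted p = 0.0602 by limma for each). LRBA missed it with library totals, DESeq2 size factors or a pseudocount of 50 CPM. It also missed it without zdna4 (adjusted p = 0.107 by limma) and with only the 4 zdna3 libraries (0.644). Beyond these settings, the cause of each shift was not tested.

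Replicate numbers showed no sign of pairing the libraries: the correlation of deviations over 919 genes was -0.02 for zdna3 and 0.05, 0.06 and 0.04 for zdna1, zdna2 and zdna4. In zdna3 the replicates did not differ beyond sampling noise over human genes, so this check could not have shown pairing there. With the replicate block the calls were 2 (RNU12 and RNU5E-1) in zdna3, 5 in the difference between numbers and 1032 on the deposited scale.

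Of the 131 genes taken in by the naming rule, 25 changed sign while passing limma's test under one of the settings compared, all 25 on the deposited scale, where all genes shifted by 0.72 at the median against 0.06. Another 27 changed sign there with no test passed on either side. Under at least 1 other setting, 60 genes, counted separately, did the same. The 25 became 0.31 for RN7SL1, 0.40 for RPPH1, 0.79 for RN7SK, 0.64 for RN7SL2, 0.41 for RNU4-2, 0.65 for RNU4-1, 0.70 for SNORD3A, 0.77 for SNORA73A, 0.74 for EEF1A1, 0.67 for SSRP1, 0.75 for H1-2, 0.57 for RPL8, 0.70 for NPM1, 0.69 for DDX21, 0.68 for HUWE1, 0.65 for SUPT6H, 0.62 for HSP90AB1, 0.74 for HSPA8, 0.56 for HSP90AA1, 0.76 for ATF4, 0.70 for ENO1, 0.75 for NORAD, 0.78 for SRRM2, 0.64 for HNRNPA2B1 and 0.62 for PABPC1. Depth limits weak genes: under 100 CPM the median standard error was 0.70.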
